A study of Mus musculus with 9 samples.

Results

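The genes described here are 10 that supply energy to striated muscle: the creatine kinases Ckm, Ckmt2 and Ckb, the adenylate kinase Ak1, the oxygen-binding protein myoglobin (Mb), the muscle glycogen phosphorylase Pygm, and the lipid-handling genes Fabp3, Fabp4, Cd36 and Lpl. They were taken by name from 14860 genes measured on 9 Affymetrix Mouse Exon 1.0 ST arrays, and each of the 10 was read by 1 transcript cluster carrying only its symbol. All cells derived from E14.1 (129/Ola), a line of mouse embryonic stem cells. The stem cells were differentiated toward the heart and sorted at the cardiac progenitor stage by the surface receptors Flk1 and Pdgfra. There were 3 groups of 3 arrays each: cTnT+ cardiomyocytes, obtained by further culture of the double-positive fraction, then Flk1+Pdgfra+ progenitors, and Flk1+ progenitors, which is the title used for the Pdgfra-negative fraction. The labels do not state whether the cardiomyocytes were sorted for cardiac troponin T (cTnT) and name no other genotype or agent. They also leave out whether a group's arrays had independent cultures behind them, so all p-values rest on array-to-array spread and may reflect technical variation alone.

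Muscle keeps its ATP steady through creatine kinases, which move phosphate between ATP and creatine, and through adenylate kinases, which regenerate ATP from ADP. Myoglobin stores oxygen and eases its diffusion to mitochondria, while glycogen phosphorylase releases glucose units from glycogen. The working heart draws most of its fuel from fatty acids: lipoprotein lipase frees them from circulating lipoproteins, CD36 carries them across the membrane and cytosolic fatty acid binding proteins shuttle them inside the cell.

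All values are log2 expression levels, so a difference of 1 is a doubling. Probes differ in brightness, so the level of one gene is not set against that of another. The sort markers followed the labels. Tnnt2, which encodes cTnT, was at 12.59, 12.40 and 11.85 in cTnT+ cells, against 7.09, 7.34 and 6.61 in Flk1+Pdgfra+ cells and 8.54, 8.77 and 7.77 in Flk1+ cells. Pdgfra averaged 11.35 ± 0.42 in Flk1+Pdgfra+ cells and 6.96 ± 0.40 in Flk1+ cells (SD, n = 3 each), and 11.31 ± 0.32 in cTnT+ cells. Kdr, which encodes Flk1, averaged 10.84 ± 0.50 in cTnT+ cells, 11.98 ± 0.25 in Flk1+Pdgfra+ cells and 12.30 ± 0.16 in Flk1+ cells. Some arrays stood apart from their group. The pluripotency genes Pou5f1 and Nanog read 10.73 and 10.99 on Flk1+ replicate 3, whereas Pou5f1 read 6.69 and 7.41 and Nanog 6.21 and 6.43 on Flk1+ replicates 1 and 2. For these 2 genes the level lay within the range of the Flk1+Pdgfra+ arrays. On those arrays Pou5f1 read 10.47, 10.60 and 11.22 and Nanog 10.56, 10.56 and 11.33. The 10 measured pluripotency genes averaged 8.78 on Flk1+ replicate 3, above the 7.89, 7.99 and 8.20 of the Flk1+Pdgfra+ arrays. Single genes of that list lay on either side of those arrays. Utf1 read 9.27 on Flk1+ replicate 3, above their 6.45, 6.88 and 6.41. Tdgf1 read 11.49, below their 12.88, 12.86 and 13.46. Pdgfra on Flk1+ replicate 3 was 7.35, near the 6.55 and 6.99 of the other Flk1+ arrays. On Flk1+Pdgfra+ replicate 3 endothelial markers averaged 6.63, whereas they averaged 8.11 and 8.20 on replicates 1 and 2. They were also lower on Flk1+ replicate 3, at 9.77 against 11.01 and 11.16 on Flk1+ replicates 1 and 2. Smooth muscle markers averaged 8.23 on Flk1+ replicate 3, above the 7.17 and 7.25 of the other Flk1+ arrays. On cTnT+ replicate 3 the 11 measured macrophage markers averaged 6.87, whereas they averaged 6.12 and 6.23 on cTnT+ replicates 1 and 2. Among the 10 genes, results that rest on replicate 3 of the progenitor groups are given with and without it. Differences of other single genes are given with all arrays only.

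Of the 10 genes, 6 rose in cTnT+ cells against Flk1+Pdgfra+ cells and 0 fell, where 22.5% of all genes tested rose and 18.7% fell (limma, Benjamini-Hochberg adjusted p under 0.05). The 6 were Lpl, Pygm, Fabp3, Cd36, Mb and Ckmt2. Against Flk1+ cells, 7 rose and 0 fell, the same 6 and Ak1, where 22.6% of all genes rose and 16.6% fell. The median difference of the 10 genes was 1.14 in the first comparison and 1.54 in the second, and that of all genes was 0.0043 and 0.0535. Both comparisons use the same cTnT+ arrays. Between Flk1+Pdgfra+ and Flk1+ cells, 0 of the 10 genes were called by limma in either direction, where 4.64% of all genes rose and 5.87% fell. At an unadjusted limma p under 0.05, 1 of the 10 genes was higher, Fabp4, and 0 were lower. The share of all genes at that threshold was not counted, and all levels of Fabp4 lay below the arrays' lower quartiles. All 3 cTnT+ arrays lay above all arrays of the other group for 7 members in either comparison, and the same held for 28.8% of all genes against Flk1+Pdgfra+ cells and 26.8% against Flk1+ cells. In a mixture of cells, fewer cells of a type and less RNA per cell cannot be told apart.

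**Figure D1:**
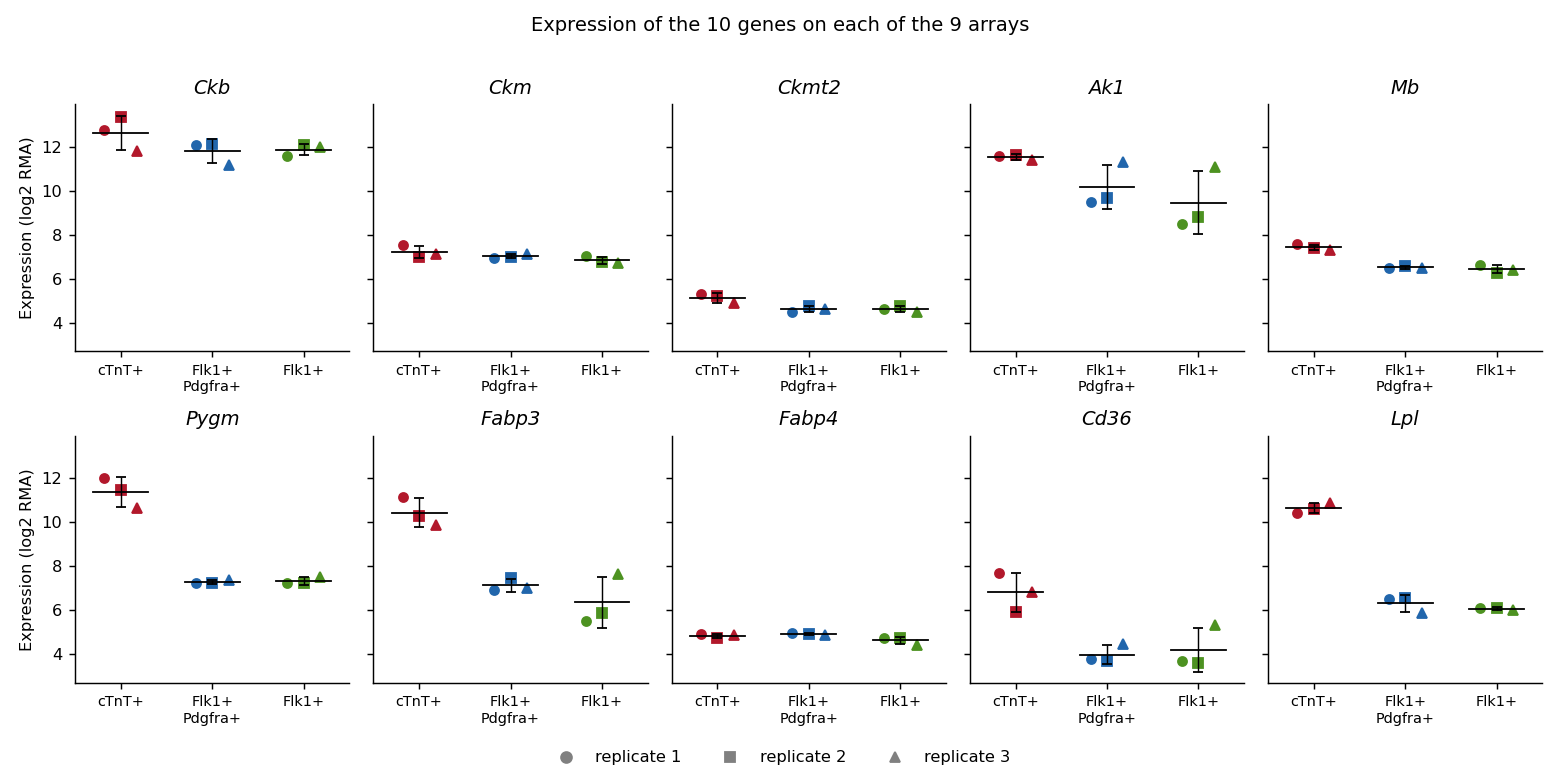
Log2 RMA expression (vertical axis) of each of the 10 genes on each array, by group from left to right cTnT+, Flk1+Pdgfra+ and Flk1+. Each symbol is an array, the horizontal line is the group mean and the bar is the SD of 3 arrays. Lpl and Pygm are above 10 on all 3 cTnT+ arrays and below 8 on all 6 progenitor arrays, and the third progenitor arrays of Ak1 lie far above the others.

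The 3 creatine kinase genes did not move together. Ckb, the brain-type cytosolic enzyme that is also the form of the early heart, read 12.77, 13.33 and 11.80 in cTnT+ cells, against 12.09, 12.12 and 11.15 in Flk1+Pdgfra+ cells and 11.57, 12.06 and 11.97 in Flk1+ cells. It was well measured in all 3 groups, and cTnT+ replicate 3 lay within the range of the progenitor arrays. The difference was 0.84 against Flk1+Pdgfra+ cells (95% interval -0.08 to 1.77, adjusted p = 0.134) and 0.76 against Flk1+ cells (adjusted p = 0.179). Without cTnT+ replicate 3 the differences were 1.26 (adjusted p = 0.0210) and 1.18 (adjusted p = 0.0288), so that array decides the call.

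Ckm, the muscle-type cytosolic enzyme that is the main form of adult striated muscle, read 7.53, 6.98 and 7.12 in cTnT+ cells, against 6.94, 6.98 and 7.13 in Flk1+Pdgfra+ cells and 7.02, 6.75 and 6.71 in Flk1+ cells. Only cTnT+ replicate 1 stood above every progenitor array, and the groups overlapped. The difference was 0.19 (95% interval -0.16 to 0.54, adjusted p = 0.363) against Flk1+Pdgfra+ cells and 0.39 (0.04 to 0.74, adjusted p = 0.0783) against Flk1+ cells. Ckm thus did not pass the test in cTnT+ cells, on the same arrays on which Tnnt2 was 38.4-fold above Flk1+Pdgfra+ cells. The first difference turned to -0.0718 with quantile normalization and to -0.14 with median centring. The second passed the test at 0.50 (adjusted p = 0.0407) without cTnT+ replicate 2 and at 0.43 (adjusted p = 0.0214) with array weights, and was as low as 0.0284 (adjusted p = 0.914) with quantile normalization.

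Ckmt2, the sarcomeric mitochondrial creatine kinase, read 5.30, 5.22 and 4.87 in cTnT+ cells, against 4.46, 4.73 and 4.60 in Flk1+Pdgfra+ cells and 4.61, 4.77 and 4.49 in Flk1+ cells. All 3 cTnT+ arrays were above all 6 progenitor arrays. The rise was 0.53 (1.45-fold, adjusted p = 0.0136) against Flk1+Pdgfra+ cells and 0.50 (1.42-fold, adjusted p = 0.0182) against Flk1+ cells. All 9 levels lay in the dimmest 25% of each array, under a lower quartile of at most 5.69, where signal and background were not separated, so these folds are no exact measures. Median centring, which moved the median of all genes to -0.32 and -0.28, left 0.20 (adjusted p = 0.364) and 0.17 (adjusted p = 0.461). The first call was also lost without Flk1+Pdgfra+ replicate 1 (0.46, adjusted p = 0.0550), and the second without any 1 of Flk1+ replicates 1 and 3 and cTnT+ replicates 1 and 2 (adjusted p = 0.0503 to 0.0596).

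Both enzymes of creatine synthesis rose. Gatm, which catalyses the committed step of creatine synthesis, read 10.28, 10.18 and 9.31 in cTnT+ cells, against 7.73, 7.62 and 7.27 in Flk1+Pdgfra+ cells and 7.67, 8.22 and 7.54 in Flk1+ cells. The groups did not overlap, and Gatm rose 5.22-fold against Flk1+Pdgfra+ cells (adjusted p = 0.000304) and 4.33-fold against Flk1+ cells (adjusted p = 0.000677). The pairs of values for other genes of the lists follow the same order of comparisons. Gamt, which completes the synthesis, rose 2.44-fold and 2.75-fold (adjusted p = 0.0014 and 0.000881). The creatine transporter Slc6a8 rose by 0.59 against Flk1+ cells (adjusted p = 0.0198) and differed by 0.09 from Flk1+Pdgfra+ cells (adjusted p = 0.698). Ckmt1, the ubiquitous mitochondrial kinase, fell 1.56-fold against Flk1+Pdgfra+ cells (adjusted p = 0.0194) and differed by -0.48 from Flk1+ cells (adjusted p = 0.0631). The list of creatine synthesis, uptake and phosphorylation held 7 genes, Ckm, Ckmt2 and Ckb included. Against Flk1+Pdgfra+ cells 3 rose and 1 fell, where 22.5% of all genes rose and 18.7% fell. Against Flk1+ cells 4 rose and 0 fell, where 22.6% of all genes rose and 16.6% fell.

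Ak1, the main cytosolic adenylate kinase of muscle, read 11.56, 11.64 and 11.39 in cTnT+ cells, against 9.49, 9.68 and 11.30 in Flk1+Pdgfra+ cells and 8.47, 8.80 and 11.08 in Flk1+ cells. The cTnT+ arrays were tight and above every progenitor array, while the third array of each progenitor group was nearly as high. The third arrays exceeded the mean of the first and second by 1.71 in Flk1+Pdgfra+ cells and by 2.44 in Flk1+ cells. The SD of Ak1 was larger than that of 99.2% of all genes in the first of these groups and of 99.4% in the second. Against Flk1+ cells Ak1 rose by 2.08 (4.23-fold, adjusted p = 0.0459). Against Flk1+Pdgfra+ cells the difference of 1.37 missed the threshold (95% interval -0.24 to 2.98, adjusted p = 0.162).

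Without the third arrays of both progenitor groups, Ak1 was 1.94 above Flk1+Pdgfra+ cells (adjusted p = 0.000155), 2.90 above Flk1+ cells (adjusted p = 5.27e-05), and 0.95 higher in Flk1+Pdgfra+ than in Flk1+ cells (adjusted p = 0.00945). With all arrays the last difference was 0.71 (adjusted p = 0.578). Leaving out Flk1+Pdgfra+ replicate 3 alone, the first difference was as large but not called (adjusted p = 0.0631), and leaving out Flk1+ replicate 3 alone, the last was 1.52 (adjusted p = 0.0805). The call against Flk1+ cells was lost in 10 of 20 alternatives, with adjusted p up to 0.144, among them leaving out any 1 array other than Flk1+Pdgfra+ replicate 3 and Flk1+ replicate 3.

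The list of adenylate and other nucleotide kinases had 11 measured genes, Ak1 included. Against Flk1+Pdgfra+ cells 5 rose and 3 fell, where 22.5% of all genes rose and 18.7% fell. Against Flk1+ cells 5 rose and 5 fell, where 22.6% of all genes rose and 16.6% fell. Ak4, a kinase of the mitochondrial matrix, read 10.14, 10.20 and 8.63 in cTnT+ cells, against 7.46, 7.24 and 7.41 in Flk1+Pdgfra+ cells and 6.87, 6.87 and 7.84 in Flk1+ cells. It rose 4.89-fold (adjusted p = 0.00312) and 5.52-fold (adjusted p = 0.00238). Ak5, a cytosolic form known from brain, rose 4.41-fold and 4.54-fold (adjusted p = 0.00448 and 0.00442). Nme2, a nucleoside diphosphate kinase, fell 3.16-fold and 3.43-fold (adjusted p = 0.00272 and 0.0021). The list therefore changed in both directions, and its median difference was 0.33 and 0.37 with Ak1 and 0.0797 and -0.0225 without it.

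Mb read 7.55, 7.41 and 7.31 in cTnT+ cells, against 6.47, 6.58 and 6.47 in Flk1+Pdgfra+ cells and 6.62, 6.26 and 6.40 in Flk1+ cells. The cTnT+ arrays lay in a narrow band above every progenitor array. Mb rose by 0.91 (1.88-fold, adjusted p = 0.00034) against Flk1+Pdgfra+ cells and by 1.00 (2.00-fold, adjusted p = 0.000273) against Flk1+ cells. Both calls held in all 20 alternatives, with differences from 0.59 to 0.97 and from 0.64 to 1.14. Of the other globins outside red cells, cytoglobin (Cygb) rose 4.48-fold against Flk1+ cells (adjusted p = 0.0111) and differed by 1.10 from Flk1+Pdgfra+ cells (adjusted p = 0.130), with cTnT+ levels of 8.20, 9.67 and 10.56 that overlapped the 8.59, 8.63 and 7.90 of Flk1+Pdgfra+ cells.

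Pygm was among the genes with the clearest separation. It read 12.01, 11.48 and 10.64 in cTnT+ cells, against 7.22, 7.24 and 7.36 in Flk1+Pdgfra+ cells and 7.24, 7.21 and 7.52 in Flk1+ cells. The progenitor arrays were nearly level, and the cTnT+ arrays spread over 1.37 with replicate 1 the highest and replicate 3 the lowest. Pygm rose by 4.10 (17.2-fold, 95% interval 10.7 to 27.5, adjusted p = 2.89e-05) against Flk1+Pdgfra+ cells and by 4.05 (16.6-fold, adjusted p = 4.25e-05) against Flk1+ cells.

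Most other measured genes of the glycogen pathway rose too. Of 18 measured genes of glycogen synthesis and breakdown, Pygm included, 14 rose and 0 fell against Flk1+Pdgfra+ cells, with a median difference of 1.44, and 13 rose and 0 fell against Flk1+ cells, with a median of 1.60. Leaving out Pygm, 13 of 17 and 12 of 17 rose, against 22.5% and 22.6% of all genes. Across 21 alternatives the number that rose was 11 to 15 in the first comparison and 10 to 14 in the second.

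The gene with the largest difference of that list was Ppp1r3c, whose product anchors protein phosphatase 1 to glycogen and favours glycogen synthesis. It read 10.88, 9.95 and 9.31 in cTnT+ cells, against 4.85, 5.03 and 4.60 in Flk1+Pdgfra+ cells and 4.66, 4.60 and 4.69 in Flk1+ cells. The difference was 5.22 (adjusted p = 1.84e-05) and 5.40 (adjusted p = 2.42e-05), and its progenitor levels lay below the arrays' lower quartiles. The phosphorylase forms named for liver and brain rose as well. Pygl rose 7.53-fold and 12.3-fold (adjusted p = 1.65e-05 and 1.14e-05). Pygb rose 6.03-fold and by 1.59 (adjusted p = 1.15e-05 and 0.000117).

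Epm2a, which encodes the glycogen phosphatase laforin, rose 7.43-fold and 5.82-fold (adjusted p = 0.000118 and 0.000271). Glycogenin (Gyg), the primer of new glycogen, rose by 2.58 and 2.66. The synthase Gys1 rose by 1.39 and 1.65, the branching enzyme Gbe1 by 1.51 and 1.61, and the lysosomal glucosidase Gaa by 1.49 and 1.72. Genes of synthesis and of breakdown therefore rose side by side. Against Flk1+Pdgfra+ cells Phka2, Phkg1, Nhlrc1 and Ppp1r3a did not pass the test, with differences of 0.31, 0.14, 0.06 and 0.09.

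**Figure D2:**
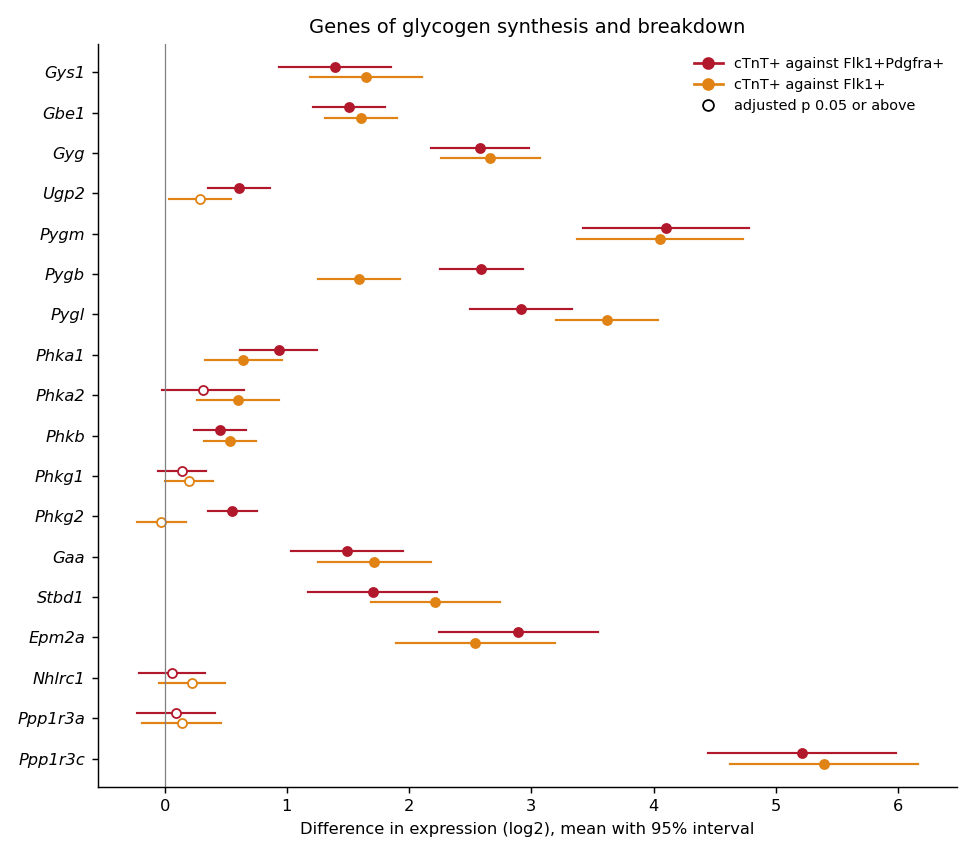
Difference in log2 expression with its 95% interval (horizontal axis) for each measured gene of glycogen synthesis and breakdown, in cTnT+ cells against Flk1+Pdgfra+ cells (red) and against Flk1+ cells (orange). Filled points passed the test and open points did not; no filled point lies below 0, and Ppp1r3c and Pygm lie farthest to the right.

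Promoter windows, 250 bases before to 50 after the annotated start, were held for 8 of the 10 genes in RefSeq (GRCm38.p6). Between them they had 13 windows, 4 for Ak1 and 3 for Mb. Of these, 4 are printed because they set 2 genes that rose, Pygm and Mb, beside 2 creatine kinase genes that were not called. Capitals mark CAGCTG, an E-box form bound by myogenic factors, CCAAT on either strand (ATTGG on the printed one), and TATAAA.
Pygm, chr19:6384158-6384457, plus strand: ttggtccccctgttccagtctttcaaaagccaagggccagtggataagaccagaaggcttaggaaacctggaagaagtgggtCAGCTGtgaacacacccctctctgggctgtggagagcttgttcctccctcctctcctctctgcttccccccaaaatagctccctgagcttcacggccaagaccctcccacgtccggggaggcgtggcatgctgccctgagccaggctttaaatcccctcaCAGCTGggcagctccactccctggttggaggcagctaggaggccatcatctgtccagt
Mb, chr15:77022738-77023037, minus strand: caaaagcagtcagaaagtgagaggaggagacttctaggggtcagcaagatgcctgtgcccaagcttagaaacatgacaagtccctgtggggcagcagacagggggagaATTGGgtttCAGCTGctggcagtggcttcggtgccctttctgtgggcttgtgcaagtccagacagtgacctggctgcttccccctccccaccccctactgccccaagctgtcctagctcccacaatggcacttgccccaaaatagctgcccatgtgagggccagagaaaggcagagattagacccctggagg
Ckm, chr7:19410844-19411143, plus strand: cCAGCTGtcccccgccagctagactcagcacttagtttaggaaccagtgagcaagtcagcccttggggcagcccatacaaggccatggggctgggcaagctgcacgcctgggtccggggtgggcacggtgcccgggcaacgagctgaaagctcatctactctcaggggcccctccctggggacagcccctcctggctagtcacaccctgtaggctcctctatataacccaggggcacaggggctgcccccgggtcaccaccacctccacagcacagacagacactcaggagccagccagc
Ckb, chr12:111672289-111672588, minus strand: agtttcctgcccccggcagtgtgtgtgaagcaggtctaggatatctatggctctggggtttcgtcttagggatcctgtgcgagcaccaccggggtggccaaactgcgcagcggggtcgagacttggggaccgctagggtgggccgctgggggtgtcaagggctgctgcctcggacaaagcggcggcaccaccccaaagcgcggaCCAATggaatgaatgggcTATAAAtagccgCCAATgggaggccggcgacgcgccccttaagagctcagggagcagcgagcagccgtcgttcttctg

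The Pygm window held CAGCTG at bases -168 to -163 and -8 to -3, counted with the first transcribed base as 0, and the Ckm window held it at -249 to -244. The Ckb window held none, but had TATAAA at -28 to -23 and CCAAT at -46 to -42 and -16 to -12. CAGCTG occurred in 5 of the 8 genes, Ak1, Ckm, Ckmt2, Mb and Pygm, and in 7 of their 13 windows, of which 2 of Mb overlap, against 16.3% of 32851 RefSeq windows of the same length. It lies within the general E-box CANNTG, which occurred in 12 of the 13 windows and in 72.3% of all. Both strands were searched. Ckm carried the CAGCTG letters and was not called.

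A match to the MEF2 consensus was found for Ak1 and Ckb, with 3.19% of all windows holding one. In both it overlaps TATAAA, which in Ak1 lies at bases 21 to 26 after the start. CCAAT was found for 4 genes (37.4% of all windows) and TATAAA for 2 (13.6%). Other forms of the TATA box were not searched, such as the tatataa of the printed Ckm window. The M-CAT letters CATTCC were found for 1 gene (14.7% of all windows). The GATA letters AGATAA (11.2%) and the CArG consensus (1.63%) matched no window of the 8 genes. A match describes the sequence only.

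Fabp3, the heart-type fatty acid binding protein, read 11.15, 10.29 and 9.85 in cTnT+ cells, against 6.91, 7.47 and 7.02 in Flk1+Pdgfra+ cells and 5.51, 5.87 and 7.65 in Flk1+ cells. All cTnT+ arrays were above 9 and all progenitor arrays below 8, and Flk1+ replicate 3 was 1.97 above the mean of the other Flk1+ arrays. Fabp3 rose by 3.29 (9.81-fold, adjusted p = 0.00174) against Flk1+Pdgfra+ cells and by 4.09 (17.0-fold, adjusted p = 0.000689) against Flk1+ cells. Without Flk1+ replicate 3 the second difference was 4.74. Between the progenitor groups the difference was 0.79 (adjusted p = 0.416), and it passed the test at 1.45 (adjusted p = 0.0361) without Flk1+ replicate 3 and at 1.34 (adjusted p = 0.00216) with array weights. Without the third arrays of both progenitor groups it was 1.51 and was not called (adjusted p = 0.0668).

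Fabp4, the form of adipocytes, macrophages and some capillary endothelium, read 4.89, 4.71 and 4.87 in cTnT+ cells, against 4.94, 4.89 and 4.87 in Flk1+Pdgfra+ cells and 4.73, 4.72 and 4.43 in Flk1+ cells. All 9 levels lay below the arrays' lower quartiles. The difference was -0.08 (95% interval -0.31 to 0.16, adjusted p = 0.605) against Flk1+Pdgfra+ cells and 0.19 (adjusted p = 0.182) against Flk1+ cells, and the second turned to -0.14 with median centring. Flk1+Pdgfra+ cells were 0.27 above Flk1+ cells without overlap of the arrays (adjusted p = 0.144), and 20.2% of all genes were higher without overlap in that comparison. Within this gene pair, only the heart form was called in cTnT+ cells; the difference between the genes was not tested.

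The family of lipid-binding proteins had 9 measured genes, Fabp3 and Fabp4 included. Against Flk1+Pdgfra+ cells 2 rose and 1 fell, where 22.5% of all genes rose and 18.7% fell. Against Flk1+ cells 3 rose and 0 fell, where 22.6% of all genes rose and 16.6% fell. The first count of rises is thus near the share of all genes. The others that moved do not carry fuel fatty acids in muscle. Fabp7, the brain form, fell 3.55-fold against Flk1+Pdgfra+ cells (adjusted p = 0.0322) and was 6.78-fold higher in Flk1+Pdgfra+ than in Flk1+ cells (adjusted p = 0.0196). Crabp2 and Crabp1 bind retinoic acid. Crabp2 rose 2.66-fold and 4.33-fold (adjusted p = 0.0275 and 0.00465), and Crabp1 rose 4.85-fold against Flk1+ cells (adjusted p = 0.00418). In Flk1+ cells Fabp7 read 7.33, 7.88 and 9.62, Crabp1 9.12, 9.23 and 10.51, and Crabp2 6.07, 6.22 and 7.58. Replicate 3 was the highest Flk1+ array for each.

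Cd36 read 7.70, 5.93 and 6.80 in cTnT+ cells, against 3.76, 3.70 and 4.46 in Flk1+Pdgfra+ cells and 3.68, 3.57 and 5.34 in Flk1+ cells. The cTnT+ arrays spread over 1.77 but stayed above every progenitor array, the closest being Flk1+ replicate 3. Cd36 rose by 2.84 (7.16-fold, adjusted p = 0.00417) against Flk1+Pdgfra+ cells and by 2.61 (6.12-fold, adjusted p = 0.00681) against Flk1+ cells. The progenitor means lay below the arrays' lower quartiles, so the folds are no exact measures. Without the third progenitor arrays the differences were 3.09 and 3.19.

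Other genes of fatty acid entry moved less uniformly. Caveolin 1 (Cav1), a membrane protein of caveolae that also takes part in lipid uptake, read 8.03, 10.11 and 10.80 in cTnT+ cells, against 5.64, 5.91 and 6.41 in Flk1+Pdgfra+ cells and 6.29, 6.51 and 6.77 in Flk1+ cells. It rose 12.6-fold and 8.71-fold (adjusted p = 0.00174 and 0.00422). The fatty acid transport protein Slc27a1 rose 2.03-fold and 2.37-fold (adjusted p = 0.00526 and 0.00217). Scarb1, a lipoprotein receptor related to CD36, rose 2.08-fold against Flk1+Pdgfra+ cells (adjusted p = 0.0191) and differed by -0.22 from Flk1+ cells. Over the 10 measured genes of uptake and activation, Cd36 included, 5 rose and 1 fell against Flk1+Pdgfra+ cells, the fall being that of the acyl-CoA synthetase Acsl6 (-0.63). Against Flk1+ cells 3 rose and 2 fell, Acsl4 (-0.58) and Acsl5 (-0.72), and the median was -0.15. Without the third progenitor arrays the number that fell in the second comparison was 4. With all arrays, 22.5% of all genes rose and 18.7% fell in the first comparison, and 22.6% and 16.6% in the second.

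With all arrays, Lpl had the largest difference of the 10 genes in both comparisons. It read 10.43, 10.60 and 10.88 in cTnT+ cells, against 6.50, 6.57 and 5.85 in Flk1+Pdgfra+ cells and 6.10, 6.11 and 5.98 in Flk1+ cells. Flk1+Pdgfra+ replicate 3 was 0.68 below the mean of the other arrays of its group. The groups did not overlap, and the gap between the lowest cTnT+ array and the highest progenitor array exceeded the range within any group. Lpl rose by 4.33 (20.2-fold, 95% interval 14.7 to 27.6, adjusted p = 5.78e-06) against Flk1+Pdgfra+ cells and by 4.58 (23.8-fold, adjusted p = 7.95e-06) against Flk1+ cells. Over 20 alternatives the differences ran from 4.01 to 4.47 and from 4.24 to 4.68. Without the third progenitor arrays the order changed: against Flk1+Pdgfra+ cells Lpl was at 4.11 and Pygm at 4.14, and against Flk1+ cells Lpl was at 4.54 and Fabp3 at 4.74.

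The partners of the lipase were mixed. Gpihbp1, which carries the enzyme across the capillary endothelium, read 6.93, 6.86 and 7.75 in cTnT+ cells, against 6.67, 6.91 and 6.71 in Flk1+Pdgfra+ cells and 6.83, 6.48 and 6.45 in Flk1+ cells. Its differences of 0.42 (adjusted p = 0.198) and 0.59 (adjusted p = 0.0778) were not called. Lmf1, needed for folding of the lipase, differed by 0.10 and 0.29 and was not called. Sel1l, which takes part in the maturation of the lipase, rose by 0.61 (adjusted p = 0.00111) and 0.56 (adjusted p = 0.00181). Angptl4, an inhibitor of the enzyme, rose 2.51-fold against Flk1+ cells (adjusted p = 0.0141).

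The list of lipase partners and lipoprotein receptors had 11 measured genes, Lpl itself left out. Against Flk1+Pdgfra+ cells 4 rose and 3 fell, where 22.5% of all genes rose and 18.7% fell. Against Flk1+ cells 4 rose and 2 fell, where 22.6% of all genes rose and 16.6% fell. The endothelial lipase Lipg fell 3.96-fold and 2.38-fold (adjusted p = 0.00105 and 0.011), and the lysosomal lipase Lipa rose 3.95-fold and 2.71-fold (adjusted p = 0.000108 and 0.000626). The receptor Lrp8 fell 2.77-fold and 3.84-fold (adjusted p = 0.0014 and 0.000408). The receptor Vldlr fell 2.63-fold against Flk1+Pdgfra+ cells (adjusted p = 0.000552) and differed by 0.13 from Flk1+ cells, which was not called. Apoe, the apolipoprotein that these receptors bind, rose 3.43-fold against Flk1+Pdgfra+ cells (adjusted p = 2.79e-05), and was 3.00-fold lower in Flk1+Pdgfra+ than in Flk1+ cells (adjusted p = 0.000869).

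Some genes of lipid storage rose too. Of 19 measured genes of lipid droplet storage and release, 9 rose and 2 fell against Flk1+Pdgfra+ cells, and 8 rose and 1 fell against Flk1+ cells. Without the third progenitor arrays these were 9 and 1, and 8 and 1. With all arrays, 22.5% of all genes rose and 18.7% fell in the first comparison, and 22.6% and 16.6% in the second. Perilipin 2 (Plin2), the coat protein of droplets in many tissues, read 10.98, 11.41 and 11.39 in cTnT+ cells, against 8.42, 8.36 and 8.49 in Flk1+Pdgfra+ cells and 8.56, 8.64 and 8.57 in Flk1+ cells. It rose 7.16-fold (adjusted p = 4.97e-06) and 6.38-fold (adjusted p = 9.68e-06). Fitm1, a muscle protein of droplet formation, rose 7.08-fold and 7.42-fold (adjusted p = 6.75e-05 and 8.27e-05). G0s2, an inhibitor of the lipase Pnpla2, rose 4.08-fold and 3.78-fold (adjusted p = 6.53e-05 and 0.000114). Pnpla2 itself rose 2.06-fold against Flk1+Pdgfra+ cells (adjusted p = 0.00263) and was not called against Flk1+ cells (0.31, adjusted p = 0.251). Abhd5 fell in both comparisons (-0.47 and -1.12, adjusted p = 0.0493 and 0.000978). Dgat1 fell against Flk1+Pdgfra+ cells (-0.50, adjusted p = 0.0191). The adipocyte perilipins Plin1 and Plin4 differed from Flk1+Pdgfra+ cells by -0.14 and -0.16 and were not called. Of the other perilipins, Plin5 differed by -0.23 and -0.08 and was not called in either comparison, whereas Plin3 rose by 0.84 and 1.04.

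**Figure D3:**
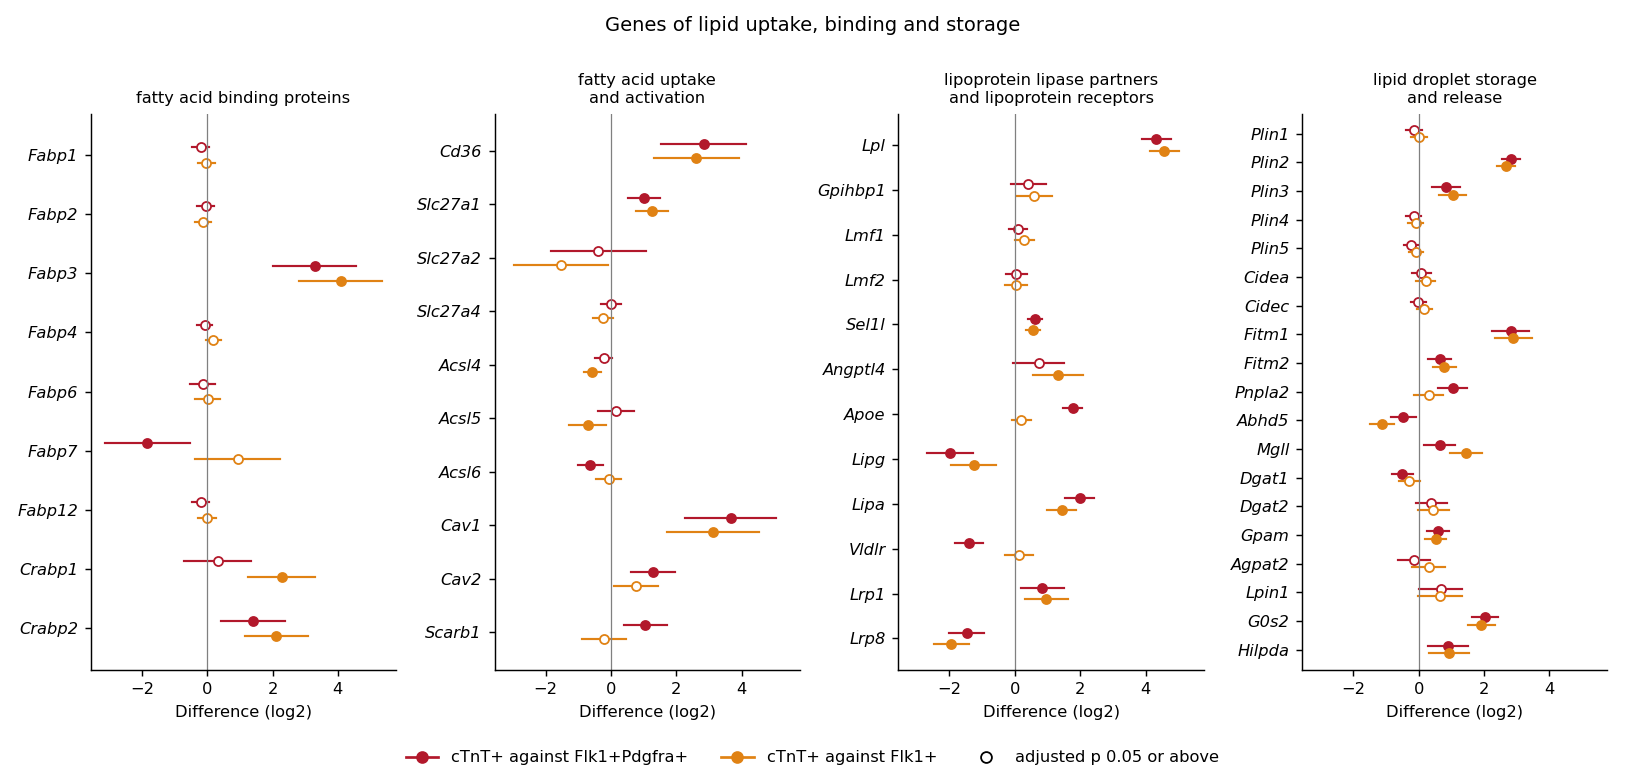
Difference in log2 expression with its 95% interval (horizontal axis) for the measured genes of 4 lists on lipid binding, uptake, lipoprotein lipase and storage, in cTnT+ cells against Flk1+Pdgfra+ cells (red) and against Flk1+ cells (orange). Filled points passed the test and open points did not; Lpl, Fabp3, Cd36, Cav1, Plin2 and Fitm1 lie to the right in both comparisons, while Lipg and Lrp8 lie to the left.

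Between the progenitor fractions none of the 10 genes passed the test with limma, either without the replicate number as a block or with it. The differences, Flk1+Pdgfra+ minus Flk1+, ran from -0.23 for Cd36 to 0.79 for Fabp3, with a median of 0.14 against 0.07 for all genes. The intervals were wide for Ak1 (-0.90 to 2.32), Cd36 (-1.53 to 1.07), Fabp3 (-0.47 to 2.06) and Ckb (-1.01 to 0.84). Flk1+ replicate 3 lay farthest above the other Flk1+ arrays for Ak1, Cd36 and Fabp3, but only 0.16 above their mean for Ckb. The fit shares 1 estimate of the spread over the 3 groups, so the spread of the cTnT+ arrays enters these intervals too. They were narrower for Pygm (-0.73 to 0.63), Mb (-0.17 to 0.34), Ckmt2 (-0.34 to 0.28) and Lpl (-0.21 to 0.69). These intervals come from the fit without the block. Ak1 and Fabp4 were higher in Flk1+Pdgfra+ than in Flk1+ cells in 3 of 3 same-numbered pairs. How many of all genes were so was not counted. The adjusted p with limma under the block was 0.442 for Ak1 and 0.165 for Fabp4. The data do not show that replicates 1 and 2 are paired by number. For Fabp3, Cd36 and Ak1, Flk1+ replicate 3 exceeded the mean of Flk1+ replicates 1 and 2 by 1.97, 1.72 and 2.44, and for Mb, Lpl and Ckmt2 it differed from that mean by -0.03, -0.12 and -0.19. The part of the pluripotency genes of that array in these values was not tested.

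**Figure D4:**
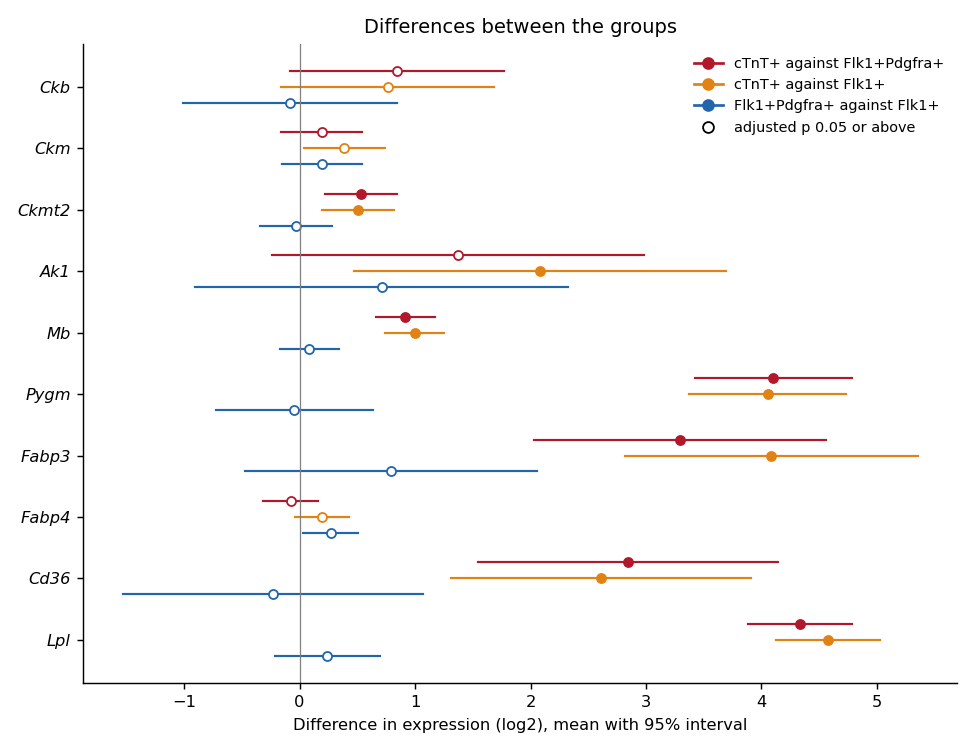
Difference in log2 expression with its 95% interval (horizontal axis) for each of the 10 genes in 3 comparisons: cTnT+ against Flk1+Pdgfra+ (red), cTnT+ against Flk1+ (orange) and Flk1+Pdgfra+ against Flk1+ (blue). Filled points passed the test and open points did not; all blue points are open, and Lpl, Pygm, Fabp3 and Cd36 have the red and orange points farthest from 0.

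For the 5 genes whose group means spanned at least 1, the genes of most similar pattern were sought among all genes by the root mean square difference of gene-centred levels over the 9 arrays. Pygm was closest to the muscle genes Hrc (0.144), Ldb3 (0.158) and Casq1 (0.185), which encode a calcium-binding protein of the sarcoplasmic reticulum, a Z-disc protein and the skeletal calsequestrin. All 3 shared with Pygm the highest cTnT+ level on replicate 1 and the lowest on replicate 3. Hrc read 10.72, 10.57 and 9.43 on those arrays and Casq1 10.59, 9.63 and 9.26. Lpl was closest to A2m (0.248), Rbms3 (0.304) and Mr1 (0.312), which lacked that order.

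Fabp3 was closest to Id2 (0.316), Gm2a (0.324) and Atp1b1 (0.352), and Cd36 to Bhlhe41 (0.296), Ptprd (0.432) and Susd4 (0.434). In both sets Flk1+ replicate 3 was the highest Flk1+ array, as for Id2 at 7.77, 8.54 and 10.50. Ak1 was closest to Igdcc4 (0.310), Tuft1 (0.321) and Ror2 (0.338). Each was high on replicate 3 of both progenitor groups, as for Igdcc4 at 8.17, 8.15 and 9.38 in Flk1+Pdgfra+ cells and 7.45, 7.33 and 9.37 in Flk1+ cells. These likenesses describe 9 arrays in 3 groups and carry no test.

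Marker lists show which cells the cTnT+ arrays could hold beside cardiomyocytes. For comparison with their counts, 22.5% of all genes rose and 18.7% fell against Flk1+Pdgfra+ cells. Against Flk1+ cells these shares were 22.6% and 16.6%. All 10 measured cardiomyocyte markers rose against both progenitor groups. Their mean level was 10.47 to 11.44 on the cTnT+ arrays, 6.26 to 6.49 on the Flk1+Pdgfra+ arrays and 6.15 to 6.30 on the Flk1+ arrays. In cTnT+ cells they ran from Myl2 at 8.79 to Myl7 at 13.14. Among the cTnT+ arrays replicate 1 was the highest, as it was for Pygm, Fabp3, Cd36, Mb, Ckm and Ckmt2 and narrowly for Fabp4, but not for Lpl, Ckb or Ak1. Of 12 skeletal muscle markers, 2 rose and 1 fell against Flk1+Pdgfra+ cells and 3 rose and 0 fell against Flk1+ cells, and their mean was 6.85 to 7.07 in cTnT+, 6.77 to 6.92 in Flk1+Pdgfra+ and 6.56 to 6.70 in Flk1+ cells. In cTnT+ cells they ran from Myf6 at 5.32 to Acta1 at 10.25, a gene that cardiomyocytes also express.

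Endothelial cells can express Cd36, Cav1 and Gpihbp1, and the product of Gpihbp1 carries the Lpl enzyme across the capillary endothelium. The 12 endothelial markers averaged 9.70 to 10.44 on cTnT+ arrays, 6.63 to 8.20 on Flk1+Pdgfra+ arrays and 9.77 to 11.16 on Flk1+ arrays. Of them 9 rose and 0 fell against Flk1+Pdgfra+ cells, whereas 1 rose and 3 fell against Flk1+ cells. In cTnT+ cells they ran from Sox17 at 8.29 to Cdh5 at 11.87. The part of endothelial cells in the results for Cd36, Lpl, Cav1 and Gpihbp1 was not tested.

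The 6 measured red cell markers all rose in both comparisons, with means of 9.13 to 10.49 in cTnT+, 6.34 to 6.51 in Flk1+Pdgfra+ and 6.28 to 6.94 in Flk1+ cells. In cTnT+ cells they ran from Klf1 at 6.90 to the embryonic globin Hba-x at 12.79. Their part in the results was not tested. The 8 smooth muscle markers averaged 9.38 to 9.59 in cTnT+, 7.35 to 8.01 in Flk1+Pdgfra+ and 7.17 to 8.23 in Flk1+ cells, and 5 rose and 0 fell against Flk1+Pdgfra+ cells and 5 rose and 1 fell against Flk1+ cells. They ran from Mylk at 6.13 to Acta2 at 13.72 in cTnT+ cells, and their part was not tested either.

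Macrophages and adipocytes can also express Cd36, Lpl and Fabp4. Of 11 macrophage markers 1 rose (Mrc1) and 1 fell (Cd68) against Flk1+Pdgfra+ cells, and 1 rose (Cd14) and 1 fell (Cd68) against Flk1+ cells. Their means were 6.12 to 6.87 in cTnT+, 5.95 to 6.04 in Flk1+Pdgfra+ and 6.09 to 6.28 in Flk1+ cells, and the 6.87 was that of cTnT+ replicate 3. On that array C1qb read 8.23, whereas it read 5.72 and 5.78 on cTnT+ replicates 1 and 2. The array was also the highest cTnT+ array for Lpl and Cav1. Without it Lpl differed by 4.21 from Flk1+Pdgfra+ cells and by 4.45 from Flk1+ cells, and Cd36 by 2.85 and 2.62, all called. The macrophage markers ran from Ptprc at 4.89, below the lower quartiles, to Mrc1 at 9.62 in cTnT+ cells. Of 8 adipocyte markers 0 rose and 2 fell against Flk1+Pdgfra+ cells, one of them Pparg (-1.60, adjusted p = 0.0116), and 1 rose (Retn, 0.40) and 0 fell against Flk1+ cells. Their means were 6.10 to 6.14 in cTnT+, 6.31 to 6.46 in Flk1+Pdgfra+ and 6.04 to 6.21 in Flk1+ cells, and they ran from Lep at 4.06 to Plin1 at 7.92 in cTnT+ cells. Adipoq, the defining adipocyte hormone, averaged 4.53 in cTnT+ cells, below the lower quartiles. The part of macrophages and adipocytes in the results for Cd36, Lpl and Fabp4 was not tested.

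**Figure D5:**
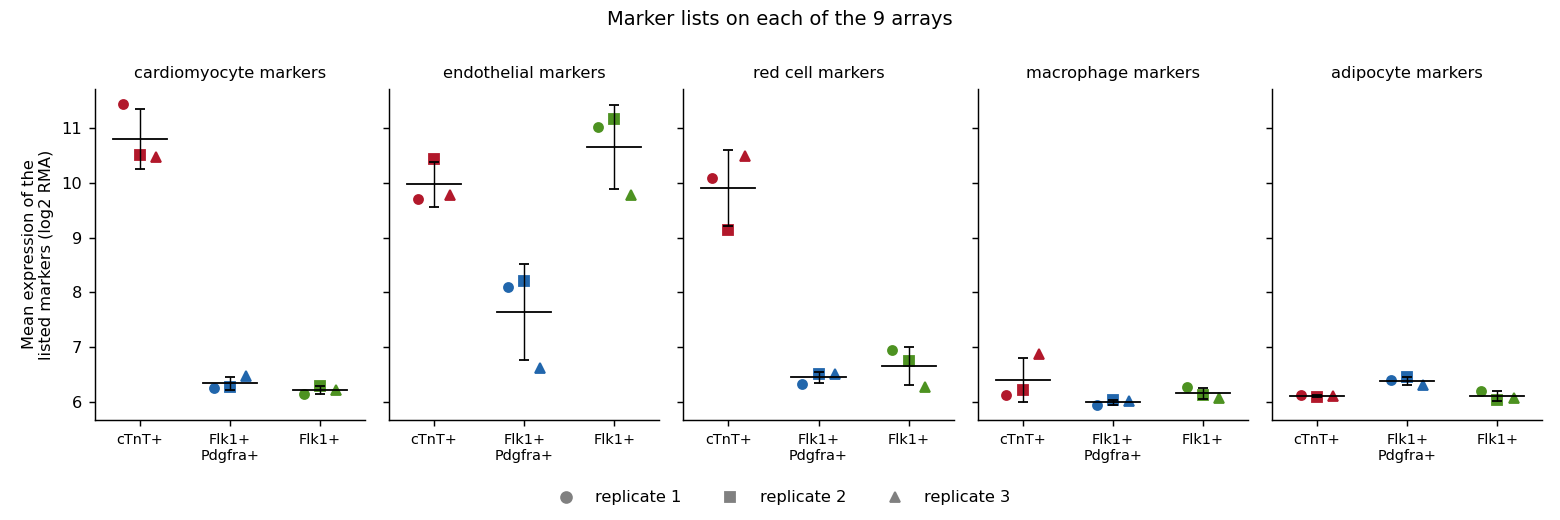
Mean log2 expression (vertical axis) of 5 marker lists on each array, by group from left to right cTnT+, Flk1+Pdgfra+ and Flk1+. Each symbol is an array, the line the group mean and the bar the SD of 3 arrays; cardiomyocyte and red cell markers are high on cTnT+ arrays alone, endothelial markers on both cTnT+ and Flk1+ arrays, while macrophage and adipocyte markers stay below 7 on all 9 arrays, with macrophage markers highest on cTnT+ replicate 3.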

How the data were processed

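Expression was measured on 9 arrays in 3 groups of 3, with groups and replicate numbers taken from the array titles. The deposited values are log2 RMA expression levels of core genes, which the authors exported from the Transcriptome Analysis Console software per the labels. RMA and R 3.3.1 stand in the submitters' processing notes. Background subtraction and a common intensity distribution are part of RMA, so no difference in total RNA can be read from these arrays. The genome build behind the array values is not given in the sources used here. Values of 23332 transcript clusters ran from 1.47 to 14.2 with 0 missing, and no detection p-values were used. The number of arrays limits the precision.

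Of the transcript clusters, 14996 had 1 symbol in the platform annotation, 1019 had several and 7317 had none. Symbols were updated by Entrez identifier from the RefSeq table of GRCm38.p6 (14941 matched, 55 kept their symbol), and the brightest transcript cluster of each of 135 genes with more than 1 was kept, which left 14860 genes. Group differences came from limma 3.58.1 under R 4.3.3 (two-sided moderated statistics from lmFit and eBayes) on all 9 arrays with 1 coefficient per group (6 residual and 2.23 prior degrees of freedom), and p-values were adjusted by Benjamini-Hochberg over all genes. An adjusted p under 0.05 was called. No exact rank test was used, since with 3 arrays a side its smallest two-sided p is 0.1. Data were simulated for the comparison of cTnT+ with Flk1+Pdgfra+ cells over 14860 genes. Of these, 69 of 100 genes changed by a log2 of 1 and 95 of 100 changed by 2 were recovered, with 8 false calls. No other genes were changed, and the noise was independent between genes with the same spread in every group. In the data 6126 genes were called and arrays deviated together, so these figures check the fit and do not measure recovery in the data.

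The 10 genes, the gene lists and the alternatives were chosen with earlier results of these data known. The text names the 10 genes, the sort markers and the 3 genes most alike to members spanning at least 1. It also names the highest and lowest marker of each list shown, other than the pluripotency list. Up to 4 called genes with the largest differences per list and comparison were picked for naming. Of these, Ak3, Ampd2, Ampd3, Phkg2, Cav2 and Mgll are not described, and those named are not given in every comparison. Gys1, Gbe1, Gaa, Phka2, Phkg1, Nhlrc1, Ppp1r3a, Acsl6, Gpihbp1, Lmf1, Plin3, Plin4, Plin5, Abhd5, Dgat1, Pparg, Adipoq, Retn, Cd14, Cd68, C1qb, Sel1l, Pou5f1, Nanog, Utf1 and Tdgf1 were named after their values were seen. Same-numbered arrays of Flk1+Pdgfra+ and Flk1+ cells deviated together (correlations of deviations from the group means 0.25, 0.33 and 0.46). Same-numbered pairs with cTnT+ arrays gave 0.02 to 0.10. Replicate numbers 1 and 2 crossed between the progenitor groups correlated more strongly (0.35 each) than the same-numbered pairs of replicates 1 and 2. The deviations thus set replicate 3 apart from replicates 1 and 2, and do not show that replicates 1 and 2 are paired by number.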

Additional observations from a re-analysis of the deposited data

How the results depend on the processing

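Of 591 differences of the 10 genes under alternative processing, 541 kept their direction and their side of the threshold, 18 lost the call, 15 gained it and 17 turned their sign. Under the replicate block the counts of the 10 genes that rose were 6, 7 and 0 in the comparisons of cTnT+ with Flk1+Pdgfra+ cells, of cTnT+ with Flk1+ cells and of Flk1+Pdgfra+ with Flk1+ cells, as without it, and 6167, 5881 and 1571 genes were called. Leaving out 1 array at a time gave 5 to 7, 5 to 7 and 0 to 1 members, and 4903 to 6607, 4536 to 5990 and 664 to 2309 genes (1562 with all arrays). Array weights gave 6 members and 7538 genes in the last comparison, 1 member rose with progenitor replicates 1 and 2 only, and an adjusted p under 0.01 left 580 genes. Single arrays moved that gene count by over 1.5 times: it was 717 without Flk1+Pdgfra+ replicate 1, 735 without replicate 2, 899 without Flk1+ replicate 1 and 664 without Flk1+ replicate 2.

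All calls of Lpl, Pygm, Fabp3, Cd36 and Mb against both progenitor groups held in every alternative that tested the gene. There were 20 such alternatives per comparison, but 19 for Cd36, which was removed with the dimmest 25% of genes. In cTnT+ against Flk1+Pdgfra+ cells, Ckm turned to -0.0718 with quantile normalization and -0.14 with median centring, and against Flk1+ cells Fabp4 turned to -0.14 with median centring. Between the progenitor groups, where no member was called, Mb turned to -0.0302 with quantile normalization. Array weights turned Ckb to 0.0193, Cd36 to 0.14 and Pygm to 0.0258, and progenitor replicates 1 and 2 only turned them to 0.29, 0.10 and 0.0106. Leaving out 1 array at a time, the same differences ran from -0.0931 to 0.0435 for Ckmt2, from -0.25 to 0.24 for Ckb, from -0.0029 to 0.18 for Mb, from -0.54 to 0.35 for Cd36 and from -0.10 to 0.0536 for Pygm. The cause was not tested. Of the genes called in cTnT+ against Flk1+Pdgfra+ cells, 54.7% rose, against 41.3% with quantile normalization and 26.9% with median centring, and against Flk1+ cells 57.7%, 41.4% and 28.8%. Over 21 alternatives, added after seeing the data, the number that rose against Flk1+Pdgfra+ and Flk1+ cells was 2 to 4 and 2 to 5 for creatine handling, 3 to 6 and 4 to 5 for nucleotide kinases, 1 to 2 and 3 to 4 for lipid-binding proteins, 3 to 5 and 2 to 4 for fatty acid uptake, 3 to 5 and 3 to 7 for lipase partners with Lpl, and 5 to 10 in both for lipid droplets. The number that fell was 0 to 1 and 0 to 1, 3 to 5 and 4 to 5, 0 to 3 and 0, 0 to 2 and 1 to 4, 3 and 1 to 2, and 0 to 5 and 1 to 3, over the same lists in the same order. Removing the dimmest 25% of genes left 7 members tested, of which 4 and 5 rose in cTnT+ cells. Signal over background limits Ckmt2, Fabp4 and Cd36, whose progenitor levels lay below the lower quartiles.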
